A study of Mus musculus with 3 samples.

Results

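The genes described here are the amino acid transporter families of the adult lung endothelial cells (ECs), meaning the solute carrier families Slc1, Slc3, Slc6, Slc7, Slc36, Slc38 and Slc43. They were chosen by gene symbol alone, without *Slc6a2* and *Slc6a4*, which gave 59 genes of the 24346 rows in the deposited table. The families hold 7, 2, 17, 15, 4, 11 and 3 genes, in the order given. All values come from 3 libraries, S38, S44 and S52, of freshly isolated lung ECs from wild type C57BL/6J mice, described in the study's methods as males of 6 to 8 weeks. The cells were labelled in the living animal with an antibody to VE-cadherin, and the organs were then minced and digested with collagenase and dispase. The cells were sorted as CD31+, CD45- and podoplanin-, so they mix ECs of every lung vessel that passed this gate. All 3 libraries belong to 1 condition, so no organ, stage or treatment was compared. The spread between libraries was the only error that could be given, and since the labels do not tie the libraries to separate mice it may be technical.

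Amino acids cross the plasma membrane by carriers that differ in their substrates and in the ions they use. Sodium-coupled carriers of the Slc1, Slc6 and Slc38 families concentrate amino acids in the cell, whereas many Slc7 carriers exchange an amino acid inside for another outside. Several Slc7 proteins are light chains that reach the surface only when bound by a disulfide bridge to a heavy chain of the Slc3 family. In ECs these carriers serve protein synthesis, supply arginine for nitric oxide and cystine or glutamate for glutathione, and pass amino acids from blood to tissue. Carriers on the lysosome release amino acids and report their supply to the kinase complex mTORC1. When amino acids are short, the transcription factor ATF4 raises a set of these carriers through a composite promoter or intron element with the letters TGATGNAA.

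Levels are given in FPKM, fragments per kilobase of gene per 1000000 mapped fragments, which is a level per length and allows genes to be set side by side. The low values gave an estimated depth of 37.98 (S38), 38.84 (S44) and 33.76 (S52) in units of 1000000 fragments. A transcript of 2000 bp at 1 FPKM then corresponds to 69.9, 71.5 and 62.1 fragments. The label was checked against 8 endothelial markers, all of them far above 1 FPKM, whose summed level was 3930 (S38), 4204 (S44) and 3960 FPKM (S52). Markers of other lung cells were present too, and those of platelets, airway, blood and alveolar type 2 cells were lowest in S52. Their values stand beside the results they move with.

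The 250 bases upstream of the RefSeq start site (build GRCm38.p6, written 5′ to 3′ on the gene's strand) are shown for 4 members on which the results turn. *Slc3a2* and *Slc38a2* are shown as highly expressed members that ATF4 is known to raise. *Slc7a7* is shown as the highest light chain and *Slc7a11* as a light chain near the floor, and they are the only members whose windows held the TGATGNAA letters. Capitals mark TGATGNAA or GGGCGG, the GC box bound by Sp1, on either strand. The windows lie on the minus strand at chr19:8713898-8714147, chr15:96699729-96699978, chr14:54417703-54417952 and chr3:50443614-50443863, the *Slc3a2* window being that of a start inside the span given for the gene below.
Slc3a2: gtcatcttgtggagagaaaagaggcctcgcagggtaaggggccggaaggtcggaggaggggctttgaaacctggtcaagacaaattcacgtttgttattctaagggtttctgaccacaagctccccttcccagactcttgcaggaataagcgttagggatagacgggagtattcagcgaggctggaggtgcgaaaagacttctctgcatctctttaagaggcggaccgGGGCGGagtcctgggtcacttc
Slc38a2: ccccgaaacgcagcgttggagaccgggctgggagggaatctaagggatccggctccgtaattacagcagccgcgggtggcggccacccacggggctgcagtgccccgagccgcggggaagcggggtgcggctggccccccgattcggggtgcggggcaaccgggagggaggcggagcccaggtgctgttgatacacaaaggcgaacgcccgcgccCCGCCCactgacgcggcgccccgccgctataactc
Slc7a7: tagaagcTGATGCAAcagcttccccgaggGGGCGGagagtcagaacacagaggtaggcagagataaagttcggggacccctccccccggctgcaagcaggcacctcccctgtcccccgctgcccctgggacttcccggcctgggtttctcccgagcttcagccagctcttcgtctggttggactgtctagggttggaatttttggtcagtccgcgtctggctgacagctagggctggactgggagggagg
Slc7a11: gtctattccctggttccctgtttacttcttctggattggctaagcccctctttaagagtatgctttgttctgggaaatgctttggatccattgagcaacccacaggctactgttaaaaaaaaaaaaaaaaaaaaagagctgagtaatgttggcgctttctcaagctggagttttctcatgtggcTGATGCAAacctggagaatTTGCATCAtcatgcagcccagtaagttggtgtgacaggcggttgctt

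RefSeq windows were found for 42 of the 59 members, 63 windows in all because some genes have several starts. TGATGNAA on either strand was in 3 of the 63 windows (4.76%), against 3.45% of all 32851 promoter windows of that length. GGGCGG was in 30 of the 63 (47.6%), against 32.7% of all windows. The *Slc7a11* window held 2 copies of TGATGNAA facing each other, at -66 to -59 and at -47 to -40 from the start. A second *Slc7a7* window, at chr14:54417945-54418194, held 1 copy at -141 to -134. The letters are a description of these windows only, and elements in introns were not searched.

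Of the 59 members, 25 (42.4%) had a mean of at least 1 FPKM and are called detected below, against 48.3% of all rows and 49.3% of the 276 other Slc genes. Of these, 22 were at 1 FPKM or above in every one of the 3 libraries. Only 5 members (8.47%) reached 10 FPKM, against 25.7% of all rows and 58 of the 276 other Slc genes. A further 21 members lay between 0 and 1 FPKM, and 13 (22.0%) were listed at 0 in all 3 libraries, against 29.5% of all rows. The median over all 59 was 0.359 FPKM, beside 0.784 FPKM over all rows, and the median over the detected members was 4.19 FPKM, beside 11.2 FPKM over all detected rows. Few members were therefore high, yet 3 of them stood above 100 FPKM and carried most of the families' transcripts. The summed level of the 59 genes was 915 (S38), 956 (S44) and 977 FPKM (S52), of which the 3 highest made up 80.9%, 83.5% and 85.6%.

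**Figure D1:**
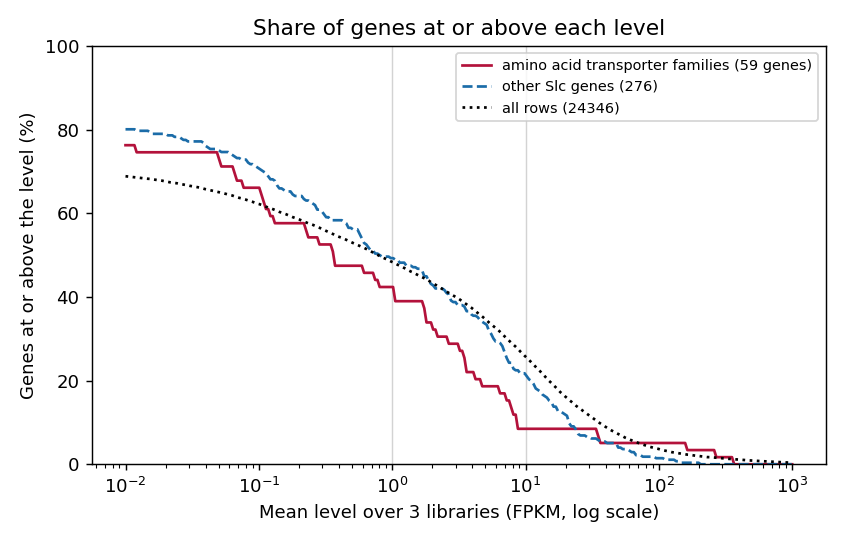
Share of genes (%) at or above each mean level over the 3 libraries (FPKM, log scale) for the 59 amino acid transporter genes, the 276 other Slc genes and all 24346 rows. At 10 FPKM the transporter curve is at 8.47%, below 58 of 276 for other Slc genes and 25.7% for all rows.

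The highest member was *Slc43a3*, which belongs to the Slc43 family by sequence but carries purine nucleobases rather than amino acids. It was at 353 (S38), 400.5 (S44) and 339 FPKM (S52), a mean of 364 ± 32.3 FPKM (SD, n = 3 libraries) that ranked 297 among all rows. The gene spans 84936579 to 84958509 on the plus strand of chromosome 2 (GRCm38, GENCODE M21), with 13 exons. *Slc3a2*, the CD98 heavy chain, which also binds the beta1 integrin, reached 252, 261 and 286 FPKM in the same order of libraries, with a mean of 266 ± 17.8 FPKM (SD, n = 3) and rank 386. It lies on chromosome 19, 8706882 to 8723369, minus strand. *Slc38a2*, which encodes the system A carrier SNAT2 for alanine, glutamine and other small neutral amino acids, was at 135 (S38), 136 (S44) and 211 FPKM (S52). Its mean was 161 ± 43.4 FPKM (SD, n = 3) and its rank 571, and the gene lies on chromosome 15, 96687392 to 96699730, minus strand. The libraries of these 3 genes did not overlap between neighbours in the order, so that *Slc43a3* was above *Slc3a2* and *Slc3a2* above *Slc38a2* in every pairing of libraries.

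A wide step followed. *Slc38a10*, a family member whose transport role is less well known, reached 38.6, 39.8 and 28.8 FPKM, with a mean of 35.7 ± 6.03 FPKM (SD, n = 3), 4.50-fold below *Slc38a2*. *Slc6a6*, the taurine transporter, was at 36.1 (S38), 32.6 (S44) and 35.3 FPKM (S52), and at 34.6 ± 1.86 FPKM (SD, n = 3) it varied least among the detected members, with a coefficient of variation of 5.36%. These 2 genes overlapped and were not separated. The next member, *Slc7a7*, was 3.95-fold below *Slc6a6* with no overlap. Among the 24 neighbouring pairs in the order of the 25 detected members, 5 had libraries that did not overlap, and 4 of these pairs were at the top of the order. The remaining pair was *Slc1a1* over *Slc38a7*.

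**Figure D2:**
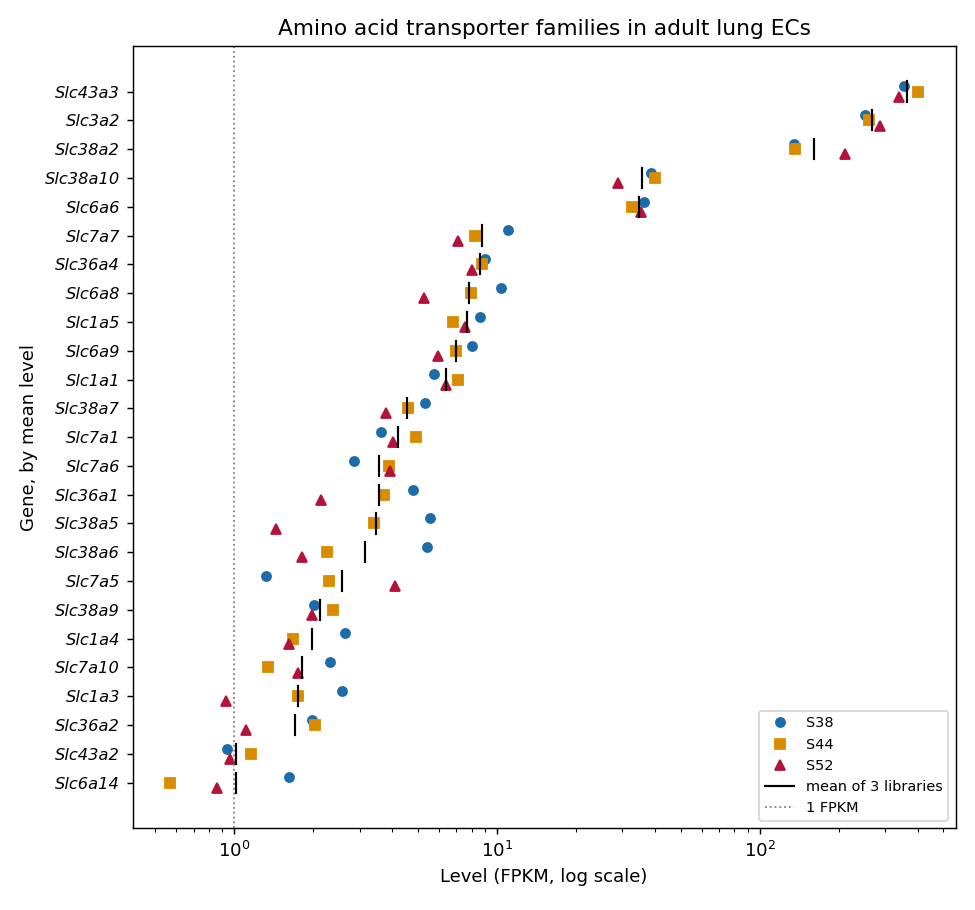
Level (FPKM, log scale) of the 25 detected members in S38 (circles), S44 (squares) and S52 (triangles), ordered by mean, with a black bar for the mean of 3 libraries and a dotted line at 1 FPKM. *Slc43a3*, *Slc3a2* and *Slc38a2* stand above 100 FPKM, *Slc38a10* and *Slc6a6* near 35, and the other 20 below 11 FPKM in every library.

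The heavy chain *Slc3a2* was far above the sum of its light chains. Added together, *Slc7a5*, *Slc7a6*, *Slc7a7*, *Slc7a8*, *Slc7a10* and *Slc7a11* came to 17.7 (S38), 16.0 (S44) and 17.1 FPKM (S52). The level of the heavy chain was 14.3, 16.3 and 16.7 times that sum, a mean of 15.7 ± 1.31 (SD, n = 3 libraries). The sum was steady between libraries while its makeup was not.

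*Slc7a7*, the light chain y+LAT1, which exports cationic amino acids against neutral ones and sodium, was at 11.0 (S38), 8.22 (S44) and 7.11 FPKM (S52). It made up 62.2%, 51.3% and 41.5% of the light chain sum. On the opposite strand *Oxa1l*, at a mean of 15.8 FPKM, shares 8.82% of the *Slc7a7* exon bases, and the libraries carry no strand information, so part of this level could be read from either gene. *Slc7a6*, the related y+LAT2, was at 2.86, 3.89 and 3.91 FPKM. *Slc7a5*, the light chain LAT1 that takes up leucine and other large neutral amino acids and is prominent in the ECs of the blood-brain barrier, was at 1.32 (S38), 2.30 (S44) and 4.10 FPKM (S52). Its share of the light chain sum was 7.46%, 14.3% and 23.9% in that order. *Slc7a7* stood above *Slc7a5* in every library, 8.77 ± 1.99 against 2.57 ± 1.41 FPKM (SD, n = 3 for both), and the ratio of *Slc7a5* to *Slc7a7* was 0.120, 0.280 and 0.577. *Slc7a10*, the alanine-serine-cysteine exchanger Asc-1, was at 2.32, 1.34 and 1.75 FPKM, and 11.2% of its exon bases are shared with *Lrp3* on the opposite strand.

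The other 2 light chains were near the floor. *Slc7a8*, the large neutral amino acid exchanger LAT2, was at 0.0272 (S38), 0.125 (S44) and 0.243 FPKM (S52), an estimated 4.05, 19.1 and 32.1 fragments. *Slc7a11*, the cystine-glutamate exchanger xCT, was at 0.16, 0.155 and 0.00324 FPKM, an estimated 54.9, 54.5 and 0.991 fragments, so S52 stood far below the other libraries. The *Slc7a11* window shown above holds the 2 facing TGATGNAA copies. *Atf4* was at 506, 644 and 729 FPKM, an RNA level that does not give the activity of its protein, and its part in the level of *Slc7a11* was not tested. In the second heavy and light chain pair, *Slc3a1* (rBAT) was at 0.306 (S38), 0.0119 (S44) and 1.87 FPKM (S52). Its partner *Slc7a9*, which with it takes up cystine and cationic amino acids in the kidney tubule, was listed at 0 in all 3 libraries. Of the *Slc3a1* exon bases 26.5% are shared with *Prepl* on the opposite strand, and *Prepl* was higher, at 6.43, 6.65 and 4.97 FPKM.

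**Figure D3:**
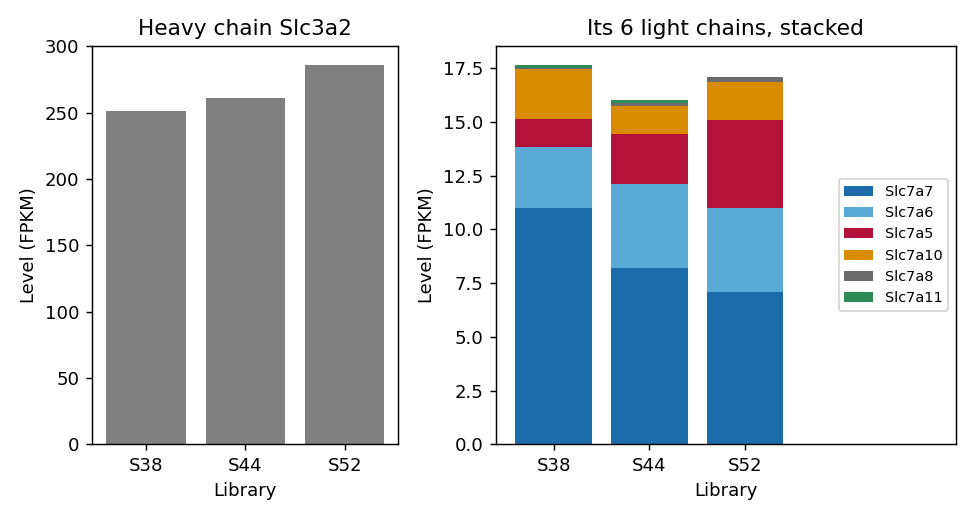
Level (FPKM, bars from 0) in each library of the heavy chain *Slc3a2* on the left and of its 6 light chains, stacked, on the right, with separate axes. The light chain stacks total 17.7, 16.0 and 17.1 FPKM, with *Slc7a7* at 11.0 FPKM in S38 and 7.11 FPKM in S52 and *Slc7a5* at 1.32 and 4.10 FPKM.

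Among the carriers of small neutral amino acids, *Slc38a2* stood alone. *Slc1a5* (ASCT2), a sodium-dependent exchanger for glutamine, alanine, serine and cysteine, was at 8.62, 6.82 and 7.56 FPKM, a mean of 7.67 ± 0.905 FPKM (SD, n = 3). Its relative *Slc1a4* (ASCT1) was at 2.63, 1.67 and 1.61 FPKM. *Slc38a1* (SNAT1), the other widely expressed system A carrier, was at 0.492, 0.433 and 0.153 FPKM, below *Slc38a2* by more than the whole spread of both genes, and *Slc38a4* (SNAT4) was at 0.488 and 0.190 FPKM in S38 and S44 and listed at 0 in S52. The system N carrier *Slc38a5* (SNAT5), which moves glutamine, histidine and asparagine, was at 5.58 (S38), 3.39 (S44) and 1.45 FPKM (S52). The other system N gene, *Slc38a3* (SNAT3), was at 0.207, 0.134 and 0.0240 FPKM. For context, *Glul*, which makes glutamine, was at 133, 161 and 156 FPKM.

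Among the CAT carriers, which bring in arginine without a heavy chain, *Slc7a1* was the highest, though below the light chain *Slc7a7*. *Slc7a1* (CAT1), the main cationic amino acid carrier of ECs, reached 3.62, 4.92 and 4.03 FPKM, with a mean of 4.19 ± 0.663 FPKM (SD, n = 3). *Slc7a2* (CAT2) was at 0.543 (S38), 0.328 (S44) and 1.52 FPKM (S52), and *Slc7a3* (CAT3) at 0.112 and 0.0846 FPKM in S38 and S44 and at 0 in S52. *Nos3*, the endothelial nitric oxide synthase, was at 19.2, 19.1 and 21.2 FPKM, above *Slc7a1* in every library, while *Nos2*, the inducible synthase, was at 4.24, 4.50 and 3.46 FPKM and *Arg1* and *Arg2*, the arginases, at means of 0.176 and 0.260 FPKM. Among the large neutral amino acid carriers of the Slc43 family, *Slc43a2* (LAT4) was at 0.938, 1.15 and 0.967 FPKM and *Slc43a1* (LAT3) at 0.254, 0.247 and 0.193 FPKM. *Slc43a2* was 357-fold below its family member *Slc43a3*.

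The acidic amino acid carriers were led by *Slc1a1* (EAAT3), which takes up glutamate, aspartate and cysteine, at 5.74, 7.10 and 6.40 FPKM. *Slc1a1* and *Slc1a5* overlapped, so the order of the 2 highest Slc1 genes was not separated. An antisense transcript, *4430402I18Rik*, shares 32.0% of the *Slc1a1* exon bases and was itself at a mean of 0.946 FPKM. *Slc1a3* (EAAT1), known best from astrocytes, was at 2.58 (S38), 1.75 (S44) and 0.929 FPKM (S52). *Slc1a2* and *Slc1a7* did not exceed 0.114 FPKM in any library, and *Slc1a6* was listed at 0. Set beside them, the first enzymes of glutathione synthesis were higher, with *Gclc* at 19.5, 18.9 and 18.4 FPKM and *Gclm* at 42.4, 35.3 and 9.72 FPKM.

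In the Slc6 family, which couples uptake to sodium and chloride, 4 of 17 members were detected, beside 48.3% of all rows. Below *Slc6a6* came *Slc6a8*, the creatine transporter, at 10.3 (S38), 7.97 (S44) and 5.26 FPKM (S52), and *Slc6a9* (GlyT1), a glycine transporter, at 8.0, 6.97 and 5.97 FPKM. Both were highest in S38 and lowest in S52, and they overlapped each other. *Ccdc24*, on the opposite strand, shares 38.8% of the *Slc6a9* exon bases but was at a mean of only 0.247 FPKM. *Slc6a14*, the broad carrier ATB0,+ of epithelia, was at 1.62, 0.570 and 0.861 FPKM, on both sides of the threshold. *Slc6a11*, *Slc6a12*, *Slc6a13* and *Slc6a7*, carriers of GABA, betaine or proline, were listed at 0 in every library, as were *Slc6a5* (GlyT2) and *Slc6a19* (B0AT1). Of the genes around taurine and creatine, *Cdo1* and *Csad*, which make taurine from cysteine, were at means of 22.3 and 9.27 FPKM. *Gamt*, of creatine synthesis, was at 7.90 FPKM and *Gatm*, the step before it, at 0.230 FPKM.

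The 3 members grouped here as lysosomal, *Slc38a7*, *Slc36a1* and *Slc38a9*, were each detected, beside 48.3% of all rows. *Slc38a7* (SNAT7), which releases glutamine and asparagine from the lysosome, was at 5.31, 4.58 and 3.79 FPKM. *Slc36a1* (PAT1), a proton-coupled carrier of small amino acids, was at 4.78 (S38), 3.71 (S44) and 2.14 FPKM (S52). *Slc38a9*, the arginine sensor that activates mTORC1 from the lysosome, was at 2.0, 2.38 and 1.98 FPKM. *Slc36a4* (PAT4) was the highest Slc36 member, at 8.99, 8.73 and 8.06 FPKM or 8.59 ± 0.478 FPKM (SD, n = 3), above *Slc36a1* and *Slc36a2* in every library without overlap. *Slc36a2* was at 1.97, 2.03 and 1.11 FPKM, and *Slc36a3* was listed at 0. Of 24 further genes of lysosomal amino acid sensing, 22 have a row and 21 were at 1 FPKM or above, from *Sesn3* at a mean of 1.04 FPKM to *Lamtor1* at 59.3 FPKM, and *Rragd* was below at 0.226 FPKM.

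All 16 genes of the amino acid response list around ATF4 were at 1 FPKM or above, from *Psat1*, at a mean of 1.03 FPKM, to *Atf3*, a stress-induced factor, at 775 FPKM. For glomerular ECs, where *Fos*, *Jun* and *Atf* factors were enriched, the paper proposes a sensitivity to stress from processing and digestion of the tissue. The part of such stress in the lung levels given here was not tested. *Asns*, the asparagine synthetase, was at 12.5, 20.7 and 19.2 FPKM and *Sesn2*, a leucine sensor, at 3.35, 6.20 and 7.77 FPKM. In 10 of 12 glutathione genes, 7 of 10 arginine and nitric oxide genes, 7 of 9 glutamine and glutamate genes and 6 of 8 taurine and creatine genes the mean was also at least 1 FPKM, beside 48.3% of all rows. *Atf4* and *Slc7a5* were both lowest in S38 and highest in S52, as was *Sesn2*. *Slc38a2*, *Slc3a2* and *Slc7a6* were in the same order, which 4 of the 25 detected members (16.0%) and 16.0% of all detected rows had. The list as a whole did not share it, with S52 above both other libraries for 4 of the 16 genes and below both for 6, among them *Phgdh*, *Nupr1* and *Cebpb*.

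The members around the threshold were *Slc36a2*, *Slc43a2* and *Slc6a14* just above it, with means of 1.70, 1.02 and 1.02 FPKM, and *Slc7a2*, *Slc3a1* and *Slc7a14* just below, with means of 0.797, 0.731 and 0.615 FPKM. *Slc7a2* and *Slc3a1* were above 1 FPKM in S52 alone. Of the 21 members between 0 and 1 FPKM, *Slc6a18*, *Slc7a4*, *Slc6a20a*, *Slc6a17*, *Slc6a3*, *Slc6a15*, *Slc6a20b*, *Slc38a11* and *Slc7a13* are given by their range, with means from 0.00496 to 0.365 FPKM. The lowest, *Slc7a13*, rested on an estimated 0.994 fragments in S52 alone. *Slc6a3*, the dopamine transporter, belongs to the set by its symbol and was listed at 0 in S38. *Slc6a20a* and *Slc6a20b* are near copies, and 26.4% of the 51-base windows of *Slc6a20a* occur in other transcripts, most often those of *Slc6a20b*, so the reads of these genes may be split between them. For *Slc6a20b* the gene sharing most windows was *Sacm1l*, on the opposite strand, which shares 28.5% of its exon bases and was at a mean of 28.6 FPKM against 0.0502 FPKM. The 13 members listed at 0 included *Slc1a6*, *Slc36a3*, *Slc38a8*, *Slc6a5*, *Slc6a7*, *Slc6a11*, *Slc6a12*, *Slc6a13*, *Slc6a19*, *Slc7a9*, *Slc7a12* and *Slc7a15*. For these genes a count of 0 allows a level of up to 0.0112 to 0.121 FPKM, depending on length and library (3 fragments, counting error only).

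Among the 25 detected members, 6 (24.0%) had a highest library more than 2-fold above the lowest, against 20.1% of all detected rows. They were *Slc38a5* at 3.86-fold, *Slc7a5* at 3.11-fold, *Slc38a6* at 2.97-fold, *Slc6a14* at 2.83-fold, *Slc1a3* at 2.78-fold and *Slc36a1* at 2.24-fold. *Slc38a6*, a family member of unclear substrate, was at 5.39 (S38), 2.26 (S44) and 1.81 FPKM (S52), and 35.3% of its 51-base windows also occur in transcripts of other genes. The count rested on S38 and S52. Without S38 only *Slc38a5* differed over 2-fold (1 of 24 detected members, 13.5% of rows), and without S52 *Slc38a6* and *Slc6a14* did (2 of 25, 5.06% of rows). The other 19 members varied less than 2-fold, and the median coefficient of variation was 16.9% for the detected members and 17.6% for all detected rows.

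S52 was below both other libraries for 14 of the 25 detected members (56.0%), against 46.3% of all detected rows and 59.6% of the 136 other detected Slc genes. It was above both for 4 members (16.0%), *Slc7a5*, *Slc38a2*, *Slc3a2* and *Slc7a6*, against 33.9% of detected rows. The log2 ratio of S52 to the mean of S38 and S44 was -1.63 for *Slc38a5*, -1.22 for *Slc1a3*, -1.08 for *Slc38a6* and -0.99 for *Slc36a1*. It was 1.18 for *Slc7a5* and 0.64 for *Slc38a2*, and the median over the 11574 detected rows with no library at 0 was -0.08. For *Slc6a6*, *Slc1a5*, *Slc1a1* and *Slc7a10* the sign of this ratio depended on the scaling of the libraries.

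Summed markers of platelets, airway, leukocytes, erythroid cells and alveolar type 2 cells were lower in S52 too, by more than any detected member. The summed level of 6 platelet markers was 1738 (S38), 1378 (S44) and 42.2 FPKM (S52), and that of 6 alveolar type 2 markers was 3792, 3190 and 772 FPKM. The sums were 2767, 2303 and 401 FPKM for 5 airway markers, 1087, 798 and 170.3 FPKM for 6 leukocyte markers, and 394, 790 and 94.6 FPKM for 6 erythroid markers. For 6 fibroblast markers they were 88.8, 71.0 and 57.8 FPKM, a smaller change with a log2 ratio of -0.47. S52 was the lowest library for 2 of these markers and the highest for 2. *Lyz2* alone held 1047, 780 and 166 FPKM of the leukocyte sum, while *Ptprc*, which encodes CD45, was at 4.30, 2.06 and 0.434 FPKM. S52 was the lowest library for all 6 platelet, all 6 alveolar type 2, all 6 leukocyte and all 6 erythroid markers and for 4 of 5 airway markers. No marker was at 0 in all 3 libraries, and in S52 *Slc4a1*, *Cd3e* and *Marco* were at 0. The part of these cells in the lower S52 values of *Slc38a5*, *Slc1a3*, *Slc38a6*, *Slc36a1* and *Slc6a8* was not tested, and in bulk samples fewer cells of a type and less RNA per cell cannot be told apart.

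**Figure D4:**
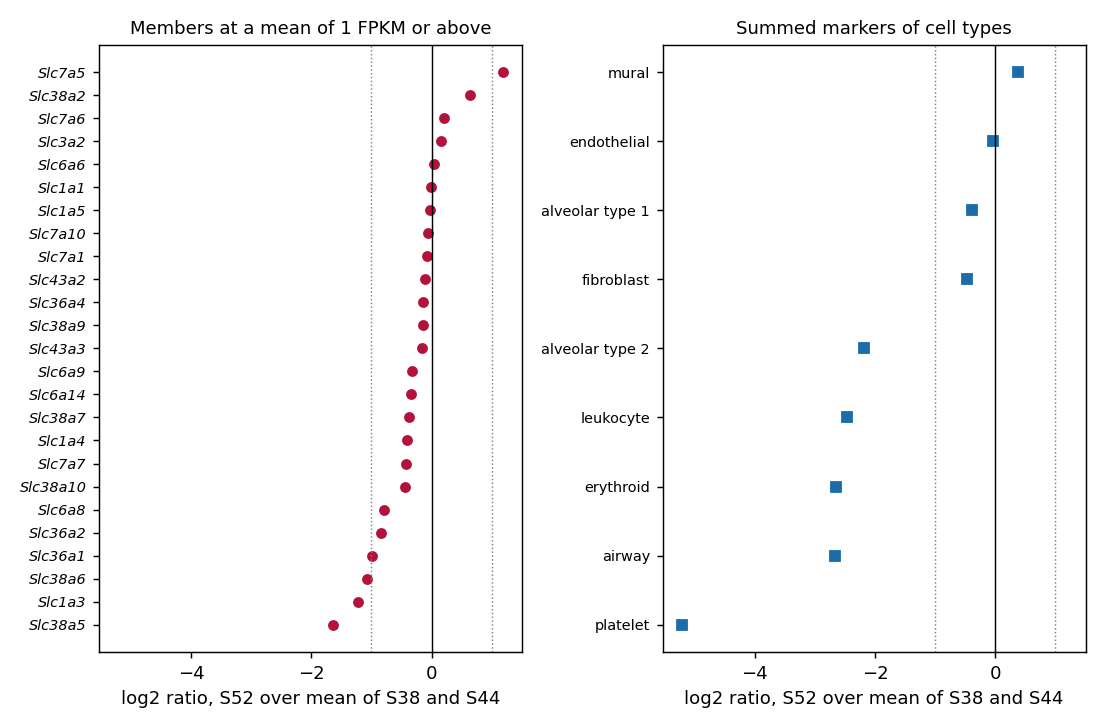
log2 ratio of S52 to the mean of S38 and S44 for each of the 25 detected members (left, circles) and for the summed markers of 9 cell types (right, squares), with a line at 0 and dotted lines at 2-fold. Members run from -1.63 to 1.18, and platelet markers lie at -5.21. The endothelial sum lies at -0.04, although S52 was the lowest library for 2 of its 8 markers and the highest for 2.

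The order with S52 highest and S44 lowest was found in 4 of the 21 members between 0 and 1 FPKM (19.0%), *Slc7a13* counting among them with 0 in both S38 and S44, and in 0 of the 25 detected members. *Slc3a1* and *Slc7a2*, with the values given above, had this order, and *Slc6a20a*, the imino acid carrier SIT1, was at 0.242 (S38), 0.0295 (S44) and 0.558 FPKM (S52). The S44 values of *Slc3a1* and *Slc6a20a* rested on only an estimated 0.978 and 4.28 fragments. Of the alveolar type 1 markers 3 of 5 had the same order, among them *Ager* at 43.3, 33.4 and 66.0 FPKM, and of the mural markers 4 of 6 did, among them *Pdgfrb* at 6.47, 4.80 and 10.1 FPKM. Of the arginine and nitric oxide genes, a list of no cell type, 3 of 10 had it too. Among all detected rows, which are a different set from the low members, 17.9% had this order, near the 19.0% of the low members. The summed level of the alveolar type 1 markers was 351, 375 and 276 FPKM and that of the mural markers 110.3, 58.1 and 109.7 FPKM, but *Hopx* alone held 294, 332 and 201 FPKM of the first and *Acta2* 90.3, 46.7 and 79.7 FPKM of the second. The sort took podoplanin- cells, and *Pdpn*, which encodes podoplanin and is 1 of the 5 alveolar type 1 markers, was at 2.39, 1.84 and 3.09 FPKM. The part of either cell type in these members was not tested.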

How the data were processed

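RNA of sorted adult lung ECs was poly-A selected and sequenced as unstranded paired reads of 51 bp in 3 libraries. The authors deposited FPKM per gene symbol on mm10. The submitters' processing notes name bcl2fastq 2.17, FastQC 0.11.5, Trimmomatic 0.36, TopHat2 2.1.0 and Cufflinks 2.2.1, while the study's methods describe STAR and HTSeq for counts. The gene annotation is not given in the sources used here. Every per-sample column was used.

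FPKM was read as deposited, and values of 0 are called listed at 0. With 1 group no test between conditions exists, and an exact paired permutation test over 3 libraries cannot go below 0.25, so the text gives values, SDs and overlap of libraries only. Depth was estimated from low FPKM of 6063 single-transcript coding genes of 800 to 4000 bp (GENCODE M21, length minus 160 bp) as the step that makes them whole fragments. Within 0.15 of a whole number lay 79.8% of 263 values in S38, 78.2% of 312 in S44 and 79.7% of 153 in S52, a step that was searched to give such values. The search was checked on simulated data. Fragment estimates use the longest transcript. All 59 members were found in GENCODE M21.

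The members, the lists and the alternatives were chosen with earlier results of these data known. Members were given values when at 10 FPKM or above, highest of a family, a heavy or light chain, over 2-fold between libraries, or next to 1 FPKM. Substrates of interest added others after their values were seen. From the 17 lists, which hold 158 entries, genes beside a member of like substrate were named. The light chain protein sequences foreseen by the plan are not analysed here. Promoters come from RefSeq (GRCm38.p6). The alternatives were leaving out each library, rescaling by the sum or the upper quartile, other thresholds and a pseudocount of 1 (Python 3.11.15, pandas 2.3.3, numpy 2.4.6). A few genes of the lists and families are not reported here by name.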

Additional observations from a re-analysis of the deposited data

How the results depend on the processing

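The number of detected members was 39 with a threshold of 0.1 FPKM, where no share of all rows was computed. With 10 FPKM it was 5, against 25.7% of all rows. It stayed between 22 and 26 with 1 FPKM required in every library, with a library left out and with both rescalings. The median of 0.359 FPKM became 4.19 FPKM when only detected members were kept. The number of members differing over 2-fold was 3 with FPKM + 1, and 12 differed over 1.5-fold. No share of all rows was computed for either count, so neither can be set against the background. The number over 2-fold was 1 without S38, against 13.5% of detected rows, 7 without S44, against 14.8%, and 2 without S52, against 5.06%. After rescaling to a sum of 1000000 it was 9, where the share of detected rows was 25.8%. The ratio of *Slc3a2* to its light chains stayed between 15.3 and 16.5 with a library left out. Rescaling cannot change this ratio, which is formed within each library. Each of the 7 families kept its highest member under every left-out library and rescaling. S52 was lowest for 14 members and highest for 4 as deposited, against 46.3% and 33.9% of detected rows. After rescaling to the sum it was so for 13 and 3 of 23 detected members, against 40.1% and 20.3%. After rescaling by the upper quartile it was so for 11 and 5 of 25, against 41.0% and 39.8%. Rescaling to the sum multiplied levels by 0.708 to 0.778 and moved 15 of 25 by over 1 SD, which follows from its construction. It moved the median log2 ratio of S52 over 11574 detected rows to -0.16. It turned the S52 ratio of *Slc6a6*, and the upper quartile turned those of *Slc1a5*, *Slc1a1* and *Slc7a10*. No value for S52 exists without S52. No paired analysis was possible because there is 1 group. Values under about 0.05 FPKM rest on a few fragments.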

Other observations

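Amino acid and peptide carriers outside these families were read as a further list of 15 genes, of which 14 have a row. A mean of 1 FPKM or above was reached by 9 of them, beside 48.3% of all rows. The choline carriers *Slc44a2* and *Slc44a1*, which are not amino acid carriers, were the highest, at means of 52.7 and 31.1 FPKM. The lysosomal peptide and histidine carriers *Slc15a3* and *Slc15a4* were lower. In the order S38, S44, S52 they had 10.3, 8.52 and 12.5 FPKM and 9.18, 8.68 and 6.28 FPKM. *Ctns*, the lysosomal cystine exporter, was at 9.53, 11.9 and 7.88 FPKM, above the surface cystine carrier *Slc7a11* in every library. *Slc16a10*, a carrier of aromatic amino acids, was at 1.58, 0.876 and 0.645 FPKM. The vesicular glutamate carriers *Slc17a6* and *Slc17a7* and the vesicular GABA carrier *Slc32a1* were listed at 0.

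Of 10 genes named as partners of family members, 7 were at 1 FPKM or above, beside 48.3% of all rows. *Itgb1*, the beta1 integrin that binds the *Slc3a2* protein, was at 333, 333 and 363 FPKM, a level of the order of *Slc3a2* itself. *Tmem27*, which brings B0AT1 to the surface in the kidney, was at 0.119 FPKM in S38 and listed at 0 in S44 and S52, and *Slc6a19*, which encodes that carrier, was listed at 0.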
